A study of Mus musculus with 4 samples.

Results

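The cell cycle module comprised 40 mouse genes, 17 that act in DNA replication (the replication list) and 23 that act in G2 and mitosis (the mitosis list), measured in CD45+ cells of the brain and the dura mater. The members were chosen by name and role, with earlier results of these data known but with no threshold on their values, and all 40 were listed in each of the 4 libraries, of 19491 genes listed in any. A dividing cell copies its DNA in S phase and parts the copies in mitosis, and each step needs proteins that resting cells hardly make. In immune tissue such transcripts mark precursors that still divide, such as those of B cells and granulocytes, while mature neutrophils have left the cycle. Microglia and border macrophages can renew themselves in place, whereas monocytes and neutrophils are replaced from marrow.

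The study sorted CD45+ cells by flow cytometry from C57BL/6J mice, adults by their labels and 8 weeks old by the design text, and profiled them with the 10x Chromium single-cell 3′ kit. There was 1 library for each of 4 groups, brain and dura mater of controls (labelled CT, taken here as the sham-operated S3 mice of the study's methods) and brain and dura mater collected 3 days after photothrombotic injury, a light-triggered clotting of vessels under the skull (labelled INJ, here D3). With 1 library per group no difference between groups could be tested, and the number of mice behind a library is not given in the sources used here. Intervals below are 95% intervals that cover counting error only. They are too narrow for differences between mice, and also because the UMIs of a member lie together in few cells.

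After the study's limits on detected genes and mitochondrial reads, and after removal of 546 cells that carried markers of several lineages, 3608 cells of brain S3, 3419 of dura mater S3, 4490 of brain D3 and 2523 of dura mater D3 remained, with median depths of 8255, 9343, 14498 and 14079 unique molecular identifiers (UMIs, single captured transcripts). Ptprc, which encodes CD45, was detected in 91.7% to 95.3% of them. Libraries shared 3 to 11 cell barcodes per pair. Classes were assigned by marker genes and are called "like" for that reason, no member was a marker, and 0% to 16.9% of the cells of a class lay near its cut (highest in B cell precursor-like cells).

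The module was first read in its own control regions. Background knowledge holds that many replication genes are switched on by E2F factors, whose sites contain letters such as TTCCCGC or TTTGGCG, and that many mitosis genes carry a cell cycle homology region (CHR, TTTGAA) with CCAAT boxes upstream. Of the 40 members, 32 had a promoter in the RefSeq table (GRCm38.p6). The 5 stretches below, 100 bases ending just before the gene's start, show such letters, with the E2F letters of replication genes and the CHR and CCAAT letters of mitosis genes in capitals on either strand (TTCAAA and ATTGG are the same letters read on the other strand). The stretches were picked for holding E2F letters (replication) or CHR letters (mitosis), going down from the members with the most UMIs. Among replication members only Mcm6 and Rrm1 held E2F letters in these 100 bases. Ube2c and Top2a hold CHR and CCAAT letters. The Mki67 stretch holds a CHR match and no CCAAT, though the wider promoter window described below holds both. CCAAT letters in the Mcm6 and Rrm1 stretches are left unmarked.
Mcm6: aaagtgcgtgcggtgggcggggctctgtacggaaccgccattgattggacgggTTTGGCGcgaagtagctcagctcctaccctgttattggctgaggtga
Rrm1: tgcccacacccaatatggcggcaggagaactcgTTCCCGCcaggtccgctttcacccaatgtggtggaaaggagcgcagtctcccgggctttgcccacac
Ube2c: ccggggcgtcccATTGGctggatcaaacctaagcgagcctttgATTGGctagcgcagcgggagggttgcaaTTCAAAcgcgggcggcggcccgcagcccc
Top2a: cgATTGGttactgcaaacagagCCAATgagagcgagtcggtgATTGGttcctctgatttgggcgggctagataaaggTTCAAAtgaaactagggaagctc
Mki67: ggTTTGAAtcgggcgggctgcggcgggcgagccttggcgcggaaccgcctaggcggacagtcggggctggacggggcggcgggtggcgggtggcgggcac

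The stretches lie at chr1:128359706-128359805 (Mcm6, minus strand), chr7:102441595-102441694 (Rrm1, plus strand), chr2:164769829-164769928 (Ube2c, plus strand), chr11:99024190-99024289 (Top2a, minus strand) and chr7:135716380-135716479 (Mki67, minus strand). Over the whole promoter window, 250 bases before to 50 after the start, TTCCCGC was found in 6 of 15 replication promoters and in 0 of 17 mitosis promoters, beside 5.29% of all 27025 genes in the table. TTTGGCG was found in 4 replication promoters and 0 mitosis promoters, beside 1.77% of all genes. TTTGAA was found in 2 replication promoters and in 12 mitosis promoters, beside 20.2% of all genes. CCAAT stood in 9 replication and 15 mitosis promoters and in 41.1% of all. A match is a description of the letters, and says nothing about binding in these cells.

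Members were not spread evenly over the cells: most cells held a few, and a small set held nearly all. The median cell held 2 members in both S3 libraries and 3 in both D3 libraries. At least 4 members were detected in 23.4% of brain S3, 37.0% of dura mater S3, 37.4% of brain D3 and 40.2% of dura mater D3 cells. When every cell was thinned to 2000 UMIs, those shares were 4.63%, 14.1%, 5.44% and 9.40%, so most cells that met the rule of 4 did so only at full depth. The distribution had a second rise near 30 members, and a rule of 15 or more members, chosen after the counts were seen, parted the 2 groups. Such high-member cells were 141 cells in brain S3 (3.91%, 3.30 to 4.59), 456 in dura mater S3 (13.3%, 12.2 to 14.5), 237 in brain D3 (5.28%, 4.64 to 5.97) and 235 in dura mater D3 (9.31%, 8.21 to 10.5). Their median was 31 or 32 members in each library, and cells with 12 to 18 members, near the threshold, were 1.44% to 3.01% of cells.

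**Figure D1:**
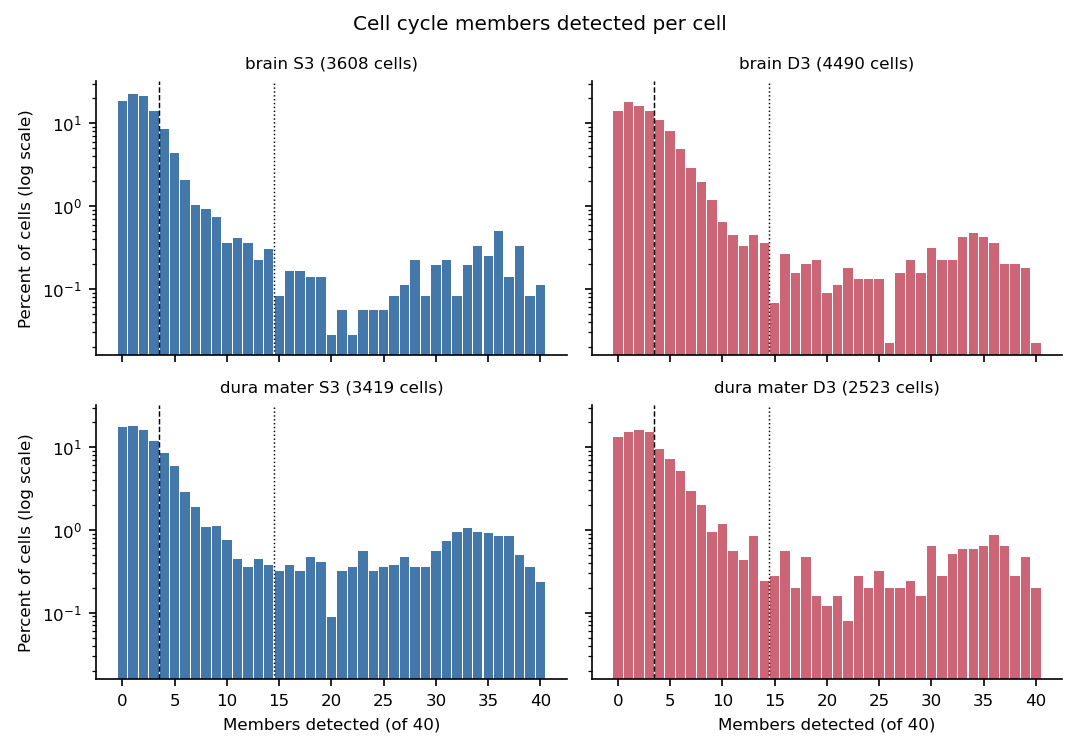
Percent of cells (log scale) by the number of the 40 members detected, in each library. The dashed line marks 4 members and the dotted line 15 members, and the second rise near 30 members is present in all 4 libraries.

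The high-member cells held most of the module's UMIs. In the brain they held 77.6% at S3 and 72.7% at D3, and in the dura mater 90.5% at S3 and 83.7% at D3. They were deeper than the other cells, with medians of 24638 to 31758 UMIs against 8019 to 13928. When cells with 4 or more members were picked after thinning, their full depth was still 1.35 to 3.06 times the median of the other cells of their class in the 13 sets of class and library with at least 20 such cells.

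The members differed in how strictly they kept to high-member cells. These cells were chosen by the same 40 members, 23 of them mitosis genes, so that a high share there is in part set by the choice and is given as a description. Nusap1 and Ccna2, which encode a spindle protein and cyclin A2, had 97.8% of their UMIs there, and Pclaf, which encodes a partner of the replication clamp, had 97.2%. At the other end stood Cdt1, a licensing factor of replication origins, with 36.1%, and Pcna, the clamp itself, with 40.7%. Among cells with under 15 members, Pcna was detected in 33.6%, Stmn1 (a protein that destabilises microtubules) in 22.2% and Mcm3 (a subunit of the replicative helicase) in 21.4%. Bub1, a kinase of the spindle checkpoint, was detected in 0.517% of those cells and Kif20a, a motor of the dividing spindle, in 0.470%. The lists differed as well. The share of UMIs in high-member cells was 87.1% or more for every mitosis member but Stmn1 (84.2%), and above that for 2 of the 17 replication members, Pclaf and Rrm2 (96.7%).

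Genes of the cycle outside the module were read in the same cells. Genes entered a count of 2-fold differences if their UMIs, summed over the pair of groups compared, reached 20. Of 25 other replication genes, 25 were at least 2-fold higher in high-member than in other cells of each library. Of 37 other mitosis genes, 36 were, the exception in each library being Pttg1, which encodes securin. Of all genes tested, 9.06% were that much higher in brain S3, 9.28% in brain D3, 9.92% in dura mater S3 and 7.81% in dura mater D3, and 17.7%, 10.7%, 20.4% and 22% that much lower. Slbp, the histone mRNA binding protein, was at 193 CPM (UMIs of a gene per 1000000 UMIs of the cells) in high-member cells of brain S3 and 81.4 in the others. Hmgb2, a chromatin protein, was at 3790 and 459 there. G1 cyclins, kinases and regulators were mixed, with 3 to 5 of 12 higher and 0 to 2 lower. Ccnd3 (cyclin D3) was at 290 and 191 CPM in brain S3, and Ccnd2 (cyclin D2) at 62.4 and 134. Of 14 CDK inhibitors and genes of resting cells, 12 to 14 had enough UMIs, and 2 or 3 were higher and 2 to 5 lower. The antiproliferative genes Btg1 and Btg2 were lower in high-member cells of every library, Btg1 at 545 against 1474 CPM in brain S3 and 437 against 878 in brain D3. High-member and other cells also differ in class mix. In brain S3, Ly6C high monocyte-like cells were 27.7% of high-member cells and 6.60% of all kept cells, and mature B-like cells 0.709% and 13.4%. The part of class mix in the differences of this paragraph was not tested.

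Both lists divided the 1069 high-member cells. Where mitosis members made up less than 50% of a cell's module UMIs it was called replication-led (337 cells), and otherwise mitosis-led (732 cells). For the level of a member, that member was left out of the split, so that its own sets differ slightly in size (from 291 replication-led cells for Pclaf to 396 for Stmn1). Since the other members still chose these sets, the members' differences are given as a description. Cenpf (a kinetochore protein) stood 4.56 higher on the log2 scale in mitosis-led cells, Ube2c (an E2 enzyme of the anaphase-promoting complex) 4.35, and Cdc20 (its activator) 3.72. Cdc6 and Mcm2, which load the replicative helicase and form part of it, stood at -2.16 and -2.02. Stmn1 (0.09), Rrm2 (0.05) and Rrm1 (-0.10) were close to even in both sets, although Stmn1 sits in the mitosis list and the Rrm genes, subunits of ribonucleotide reductase, in the replication list. Pclaf, of the replication list, was higher in mitosis-led cells (0.44, 0.38 to 0.49), and so in 4 of 4 libraries. Among genes outside the module, 29 of 37 other mitosis genes were at least 2-fold higher in mitosis-led cells and 1, Mybl2, was lower, beside 4.87% of all genes higher. Of 25 other replication genes, 0 were higher and 12 lower, beside 6.32% of all genes lower. Median depth was 28039 UMIs in replication-led and 27500 in mitosis-led cells.

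**Figure D2:**
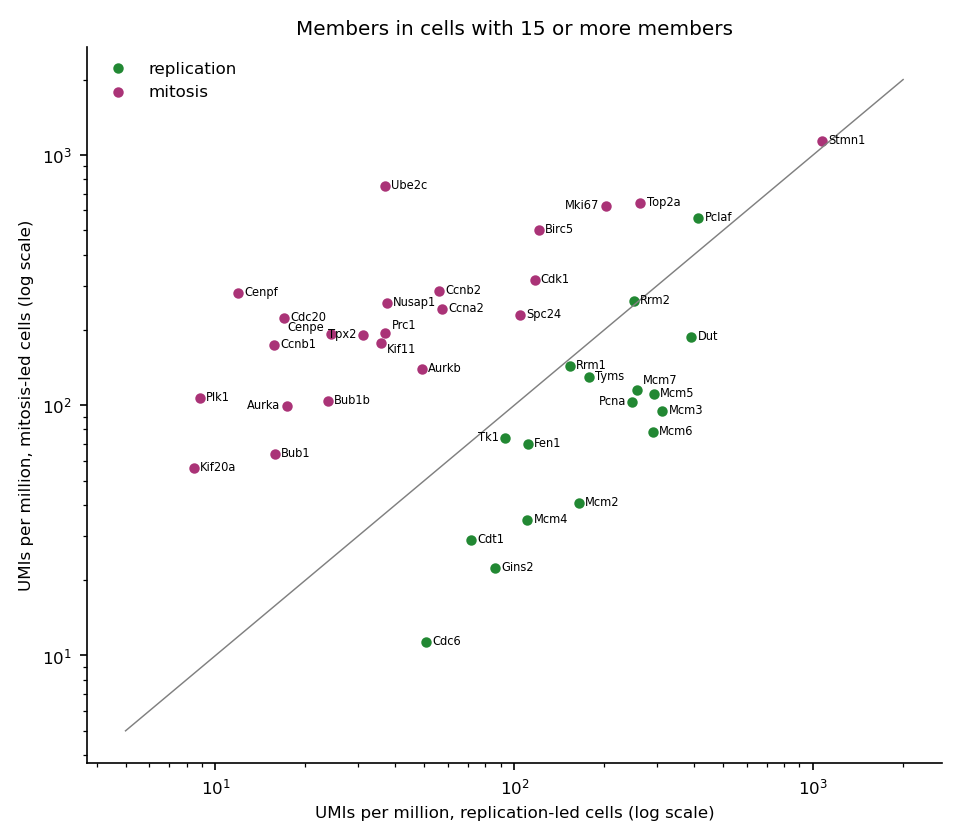
Level of each member (CPM, both axes on a log scale) in replication-led and mitosis-led cells among the 1069 cells with 15 or more members, each member left out of its own split. Points on the line are even between the sets, and Stmn1, Rrm2 and Rrm1 lie close to it.

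By library, both lists were highest in dura mater S3. The replication list was at 474 CPM in brain S3, 331 in brain D3, 968 in dura mater S3 and 607 in dura mater D3, and the mitosis list at 731, 525, 1709 and 975. The dura mater was thus higher than the brain at both times. At S3 the log2 difference was 1.03 (1.0 to 1.05) for the replication and 1.23 (1.21 to 1.25) for the mitosis list, and 29 of 40 members were at least 2-fold higher, beside 7.79% of all genes. At D3 the differences were 0.88 and 0.89, and 13 of 40 members were at least 2-fold higher, beside 15.5% of all genes.

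Among replication genes, Pclaf was at 60.4 CPM in brain S3, 40.5 in brain D3, 161 in dura mater S3 and 93.8 in dura mater D3. Pcna was at 51.4, 35.6, 83.7 and 67.3 in that order, and Rrm2, the regulated subunit of ribonucleotide reductase, at 22.8, 17.5, 84.8 and 54.6. Dut, which clears dUTP, was at 46.5, 25.3, 102 and 55.5. All 4 genes were lower at D3 than at S3 in both tissues. The helicase subunits Mcm3 and Mcm6 were at 41.4 and 40.7 in brain S3, and at 37.8 and 23.8 in brain D3. In the dura mater Mcm3 went from 66.0 at S3 to 45.1 at D3 and Mcm6 from 62.1 to 37.9, so Mcm3 differed less between times than Mcm6.

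Among mitosis genes, Mki67, whose protein Ki-67 coats mitotic chromosomes, was at 61.2 in brain S3, 41.3 in brain D3, 151 in dura mater S3 and 95.8 in dura mater D3. Top2a, the topoisomerase that untangles sister chromatids, was at 70.4, 40.3, 165 and 91.7. Ube2c was at 72.5, 54.6, 154 and 79.5, and Stmn1 at 145, 120, 379 and 220. The order of the 4 libraries was the same for these genes. Birc5 (survivin, of the chromosomal passenger complex) was at 48.7, 35.9, 107 and 66.0, and Cdk1, the kinase that starts mitosis, at 29.4, 27.0, 78.5 and 44.6. Mki67 was detected in 6.90% of brain S3 cells and 11.5% of brain D3 cells although its level was lower at D3, and the D3 cells were the deeper ones.

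In the brain as a whole, D3 minus S3 on the log2 scale was -0.52 (-0.55 to -0.49) for the replication and -0.48 (-0.50 to -0.45) for the mitosis list. No member was 2-fold higher and none 2-fold lower, beside 4.52% of all genes higher and 17% lower, and the median of all genes was itself at -0.26. Gins2, which helps to activate the helicase, was the member with the highest difference (0.22, 0.02 to 0.43), and Cdk1 was next (-0.12). Nusap1 (-0.92) and Dut (-0.88) were the lowest. These differences moved with the make-up of the library and with the limits on cells. Cells of the infiltrating macrophage-like class were 28.3% of brain D3 cells and carried little of either list (174 and 84.0 CPM) at a median of 23306 UMIs. Without them the differences were -0.10 for the replication and 0.20 for the mitosis list, which thus turned. Without the study's limits on genes and mitochondrial reads they were -0.10 and 0.032.

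In the dura mater as a whole, D3 minus S3 was -0.67 (-0.70 to -0.65) for the replication and -0.81 (-0.83 to -0.79) for the mitosis list. The 3 members at least 2-fold lower were Mcm7 (-1.13), Cenpf (-1.09) and Cdc20 (-1.06), beside 4.46% of all genes, and 0 were 2-fold higher, beside 3.22%. Pcna (-0.32) and Tk1, thymidine kinase (-0.47), differed least. The median of all genes was at -0.07. B cell precursor-like cells were 288 in dura mater S3 and 23 in dura mater D3, and in S3 they held the lists at 2933 and 6972 CPM. Without them the differences were -0.48 and -0.52.

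The classes spanned a wide range. Granulocyte precursor-like cells of the dura mater were high-member cells in 24 of 30 cases at S3 (80.0%, 61.4 to 92.3) and 20 of 21 at D3 (95.2%, 76.2 to 99.9). B cell precursor-like cells of dura mater S3 were so in 95 of 288 (33.0%), immature neutrophil-like cells in 30.3% and Ly6C high monocyte-like cells in 24.6%. Mature neutrophil-like cells, which have left the cycle, were low. In them 1.34% to 2.24% of cells held 4 or more members over the 4 libraries, at median depths of 4033 to 7734 UMIs, and 1 of 1312 cells was a high-member cell. After thinning, 0% to 0.249% of them held 4 or more members. Since the rule of 4 depends on depth, their shares at full depth are no background for deeper classes.

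**Figure D3:**
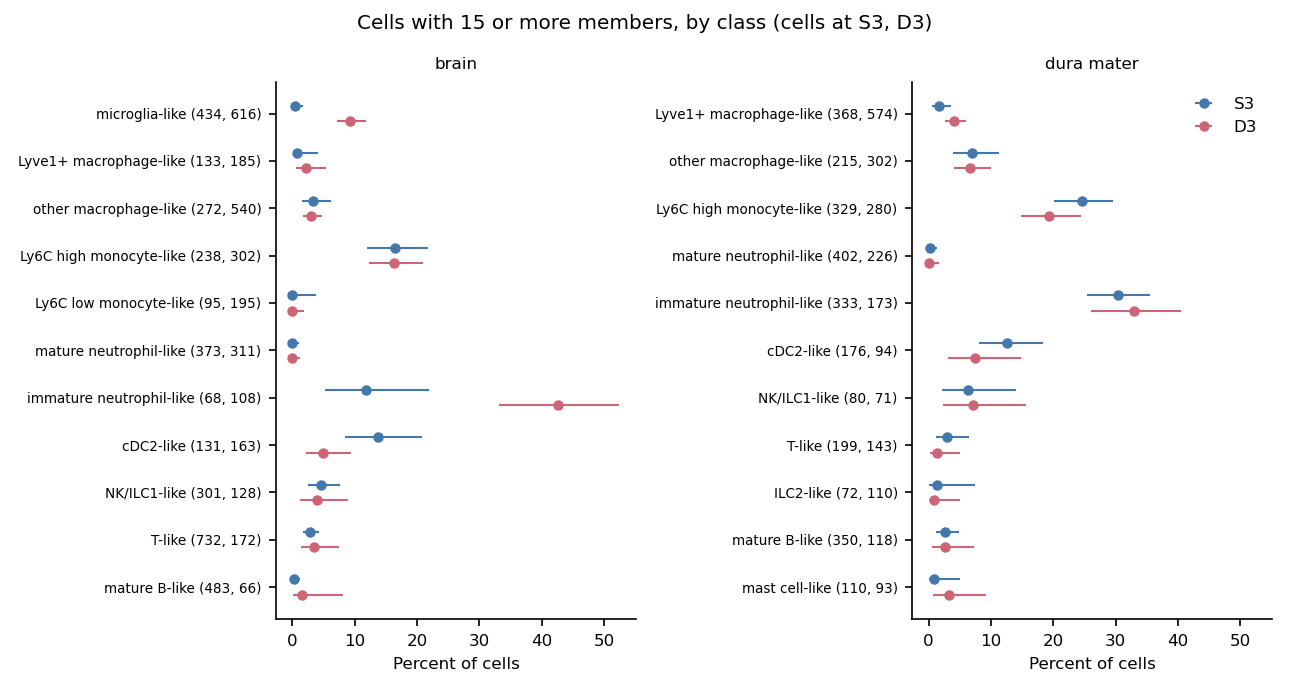
Percent of cells with 15 or more members in each class with at least 50 cells at both times, by tissue, with exact binomial 95% intervals (lines, counting error only) and cells at S3 and D3 in brackets. The microglia-like and immature neutrophil-like cells of the brain are the classes whose intervals at S3 and D3 lie apart.

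Microglia-like cells of the brain held more of both lists at D3. Their replication list went from 170 CPM in 434 cells at S3 to 374 in 616 cells at D3, a log2 difference of 1.14 (1.03 to 1.24). The mitosis list went from 109 to 791, a difference of 2.86 (2.74 to 2.99). High-member cells were 2 of 434 (0.461%, 0.0559 to 1.65) and 57 of 616 (9.25%, 7.08 to 11.8). The share with 4 or more members went from 19.1% to 39.6%, and after thinning from 0.691% to 8.93%, with median depths of 9795 and 10276 UMIs. Of 39 members with enough UMIs, 33 were at least 2-fold higher (10 of 16 replication and 23 of 23 mitosis members), beside 5.11% of all genes in these cells. Markers moved with the time as well. The 8 microglia markers summed to 11529 CPM in microglia-like cells at S3 and 8698 at D3, and the 8 infiltrating macrophage markers to 929 and 2706, the median marker of the latter being detected in 7.37% and 35.1% of cells. The part of this shift in the module's difference was not tested.

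The replication genes did not move alike in microglia-like cells. Pclaf went from 1.33 to 41.4 CPM (log2 4.96, 3.90 to 6.28), Rrm2 from 0.762 to 13.8 (4.17, 2.79 to 6.07) and Tk1 from 1.71 to 18.4 (3.43, 2.47 to 4.58). Pcna was at 42.1 and 39.1, a difference whose interval holds 0 (-0.11, -0.35 to 0.14), and Mcm3 differed by 0.67 (0.42 to 0.94). Pcna and Mcm3 are the replication members found in the largest share of cells with under 15 members. Among mitosis genes, Birc5 went from 4.38 to 57.5 (3.71), Ube2c from 6.66 to 77.9 (3.55), Mki67 from 5.52 to 45.0 (3.03) and Stmn1 from 31.0 to 231 (2.89). The least was Cdc20, at 5.52 and 23.2 (2.07, 1.51 to 2.68), so every mitosis member was higher by more than the counting error. Among microglia-like cells with under 15 members the mitosis list was at 50.9 CPM at S3 and 201 at D3, of which Stmn1 alone made 25.3 and 115. The replication list was at 168 and 188 in these cells, a log2 difference of 0.16 against 1.14 over all the cells. Most of the replication difference thus lay in the 2 and 57 high-member cells, which is given as a description. The same members choose those cells, so leaving them out, here and below, lowers a list in part by that choice. Of the cycle genes outside the module, 16 of 23 other replication and 26 of 36 other mitosis genes were at least 2-fold higher, against 0 of 12 G1 genes and 1 of 14 inhibitors and genes of rest.

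**Figure D4:**
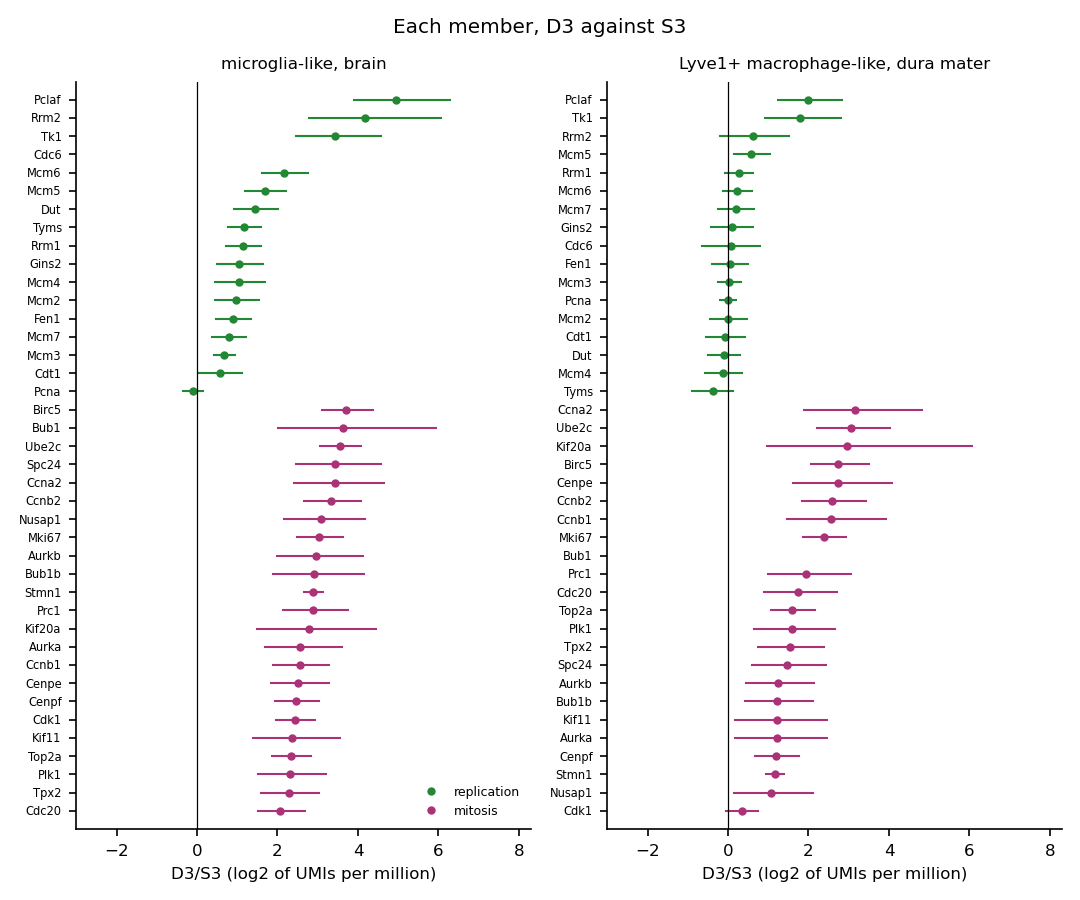
D3 minus S3 (log2 of CPM) of each member in microglia-like cells of the brain and Lyve1+ macrophage-like cells of the dura mater, with exact 95% intervals (lines, counting error only) and no point for members under 20 UMIs. All mitosis members lie right of 0 in the microglia-like cells, and most replication members lie near 0 in the Lyve1+ cells.

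High-member microglia-like cells of D3 lay largely above the study's limit of 6000 detected genes. With that upper limit dropped, high-member cells were 7 of 460 at S3 (1.52%) and 195 of 808 at D3 (24.1%), and 138 of the 195 (70.8%) had more genes than the limit allows. The lists then went from 241 to 745 and from 234 to 1455 CPM. The markers of these cells are given as a description. The microglia markers also assigned the class, so their detection in it is in part set by that choice. In the 57 high-member microglia-like cells of D3, 8 of 8 microglia markers were each detected in at least 50% of cells (73.7% to 100%), with a summed level of 7467 CPM against 8698 in all microglia-like cells of that library. Of 8 infiltrating macrophage markers, 4 were detected in at least 50% of them, with a summed level of 2248 against 2706 in all microglia-like cells. Above the limit, 141 microglia-like cells of D3 were high-member cells, 3 of them past the mitochondrial limit. All 8 microglia markers were in 92.2% to 100% of these 141 cells, and 7 of 8 infiltrating markers in at least 50%, at a median depth of 62096 UMIs, where detection is easier than in shallower cells. Their summed levels were 5240 CPM for the microglia markers, below the 8698 of all microglia-like cells, and 3764 for the infiltrating markers, above the 2706. The doublet caller Scrublet, at a preset rate, would remove 8 of the 141 (5.67%). In the 141 the mature neutrophil markers summed to 1585 CPM, against 684 in all kept microglia-like cells of D3. At S3, 5 of the 7 high-member cells lay above the limit, and Scrublet would remove 2 of them. In those 5 the mature neutrophil markers summed to 9023 CPM and the T markers to 1074, against 995 and 144 in all kept microglia-like cells of S3. The part of doublets in these counts was not tested further.

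Lyve1+ macrophage-like cells, the border macrophages, were higher at D3 mainly in the mitosis list. In the dura mater the mitosis list went from 125 CPM in 368 cells at S3 to 373 in 574 cells at D3 (log2 1.57, 1.44 to 1.70), and the replication list from 276 to 307 (0.15, 0.06 to 0.25). High-member cells were 6 (1.63%, 0.601 to 3.51) and 23 (4.01%, 2.56 to 5.95), intervals that overlap. Of 22 mitosis members 21 were at least 2-fold higher, Cdk1 (16.1 and 20.5 CPM) being the exception, and of 17 replication members 2 were, Pclaf (3.34 and 13.3) and Tk1 (2.51 and 8.69), beside 2.19% of all genes in these cells. Mki67 went from 7.10 to 36.8 (2.37, 1.86 to 2.93), and Pcna was at 69.3 and 69.5. In cells with under 15 members the differences were -0.077 for the replication and 0.35 for the mitosis list. In the brain the same class had 133 and 185 cells, with 1 and 4 high-member cells. Its replication list differed by -0.06 (-0.26 to 0.14) and its mitosis list by 1.66 (1.40 to 1.93), from 87.5 to 277 CPM. Without the high-member cells the mitosis list was at 83.3 and 125 CPM, so the 4 cells of D3 carried much of its level. Of the members with enough UMIs, 7 of 22 were at least 2-fold higher, beside 1.91% of all genes.

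Infiltrating macrophage-like cells, of which 1272 of 1281 kept cells came from brain D3, stood high by the rule of 4 members and low by the others. Of their 1272 cells 56.8% held 4 or more members, the highest share among brain D3 classes of 50 or more cells, yet after thinning the share was 0.551%, and 12 cells (0.943%, 0.488 to 1.64) were high-member cells. With the upper gene limit dropped, 82 of 1459 (5.62%) were, 70 of them over the limit. Of those 70, Scrublet would remove 28 (40%), and all 8 microglia markers were detected in 75.7% to 100% of them. Their median depth was 86540.5 UMIs, where detection is easier than in shallower cells. The microglia markers summed to 2997 CPM in them and the infiltrating markers to 11117. In all kept infiltrating macrophage-like cells of brain D3 these sums were 1008 and 22443 CPM. Markers of other classes were detected in the 70 cells too. The mature neutrophil markers summed to 3812 CPM, against 609 in all kept cells of the class, with 5 of 8 in at least 50% of cells. Of 8 Lyve1+ macrophage markers 6 were in at least 50%, though their sum was 1182 against 2299 CPM. Whether these cells are doublets, and of which cell types, was not tested.

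The immature neutrophil-like class gave unlike values in brain and dura mater, a difference that could not be tested. Immature neutrophil-like cells of the brain were 68 at S3 and 108 at D3, with 8 (11.8%, 5.22 to 21.9) and 46 (42.6%, 33.1 to 52.5) high-member cells. Their replication list went from 223 to 709 CPM (1.67, 1.47 to 1.88) and their mitosis list from 1613 to 3234 (1.0, 0.93 to 1.08), and 15 of 15 replication and 10 of 23 mitosis members were at least 2-fold higher, beside 8.79% of all genes in these cells. Tyms, thymidylate synthase, went from 5.86 to 41.5 (2.82, 1.65 to 4.30), on 6 UMIs at S3. In cells with under 15 members the mitosis list was at 46.0 and 58.6 CPM and the replication list at 38.2 and 76.5. Median depth also went from 11648 to 21240 UMIs in these cells, and its part in the shares was not tested beyond the thinned shares of 4 or more members, 14.7% and 42.6%. In the dura mater the same class held 30.3% and 32.9% high-member cells, and its mitosis list was at 2531 and 2287, a difference (-0.15) smaller than the median of all genes in these cells (-0.23). All 46 high-member cells of this class in brain D3 were mitosis-led (0 of 46 replication-led, which allows up to 6.52%). Of its high-member cells in the dura mater, 19 of 101 (18.8%) were replication-led at S3 and 7 of 57 (12.3%) at D3. Among granulocyte precursor-like cells of dura mater S3, 14 of 24 were replication-led.

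Ly6C high monocyte-like cells, which enter tissue from the blood, held many high-member cells in all 4 libraries. High-member cells were 39 of 238 (16.4%) and 49 of 302 (16.2%) in the brain, and 81 of 329 (24.6%, 20.1 to 29.6) and 54 of 280 (19.3%, 14.8 to 24.4) in the dura mater. The mitosis list was at 2264 and 1876 CPM in the brain and at 2079 and 1831 in the dura mater, log2 differences of -0.27 and -0.18. With the upper gene limit dropped, the dura mater direction turned, at 2439 and 2703 CPM, with 26.6% and 25.4% high-member cells. Of these, 9 at S3 and 23 at D3 lay over the limit. In the brain the mitosis list was then at 2512 and 2025 CPM. Ly6C low monocyte-like cells of the brain held 0 high-member cells of 95 at S3, which allows up to 3.16%, and 0 of 195 at D3, which allows up to 1.54%.

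Type 2 conventional dendritic-like cells (cDC2-like) present antigen. Within the study's gene limits both lists were lower in them at D3 in both tissues, with a different list leading in each. In the brain high-member cells were 18 of 131 (13.7%, 8.35 to 20.8) and 8 of 163 (4.91%, 2.14 to 9.44), and the replication list went from 696 to 351 (-0.99, -1.11 to -0.87) with the mitosis list from 792 to 502 (-0.66). Of 37 members with enough UMIs, 9 were at least 2-fold lower, beside 4.25% of all genes in these cells. In the dura mater they were 22 of 176 (12.5%, 8.00 to 18.3) and 7 of 94 (7.45%, 3.05 to 14.7), the replication list was at 603 and 521 (-0.21), and the mitosis list at 937 and 457 (-1.04, -1.15 to -0.93). There 15 of 40 members, all of them mitosis genes, were at least 2-fold lower, beside 4.46% of all genes. Cenpf went from 23.9 to 5.82 CPM (-2.04, -3.10 to -1.12) and Ube2c from 66.7 to 22.7 (-1.55, -2.06 to -1.08). In dura mater cells with under 15 members the mitosis list was at 111 and 107 CPM. With the upper gene limit dropped, the dura mater replication list turned, at 597 CPM at S3 and 743 at D3. The mitosis list there was at 987 and 787, with 23 of 178 (12.9%) and 10 of 97 (10.3%) high-member cells. In the brain both lists stayed lower at D3, 704 and 346 for replication and 872 and 492 for mitosis.

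Among lymphoid classes other than the B cell precursor-like cells (95 of 288 and 6 of 23 in the dura mater), high-member cells were few. T-like cells had 20 of 732 (2.73%) in brain S3, 6 of 172 (3.49%) in brain D3, 6 of 199 (3.02%) in dura mater S3 and 2 of 143 (1.40%) in dura mater D3. NK/ILC1-like cells had between 3.91% and 7.04%. Mature B-like cells had 1 of 483 and 1 of 66 in the brain and 9 of 350 and 3 of 118 in the dura mater, so the log2 difference of their mitosis list in the brain, 2.31 (2.07 to 2.54), sits beside a single high-member cell at each time. Without that cell the direction turned, with the mitosis list at 83.0 CPM at S3 and 51.3 at D3, against 169 and 837 with it.

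**Figure D5:**
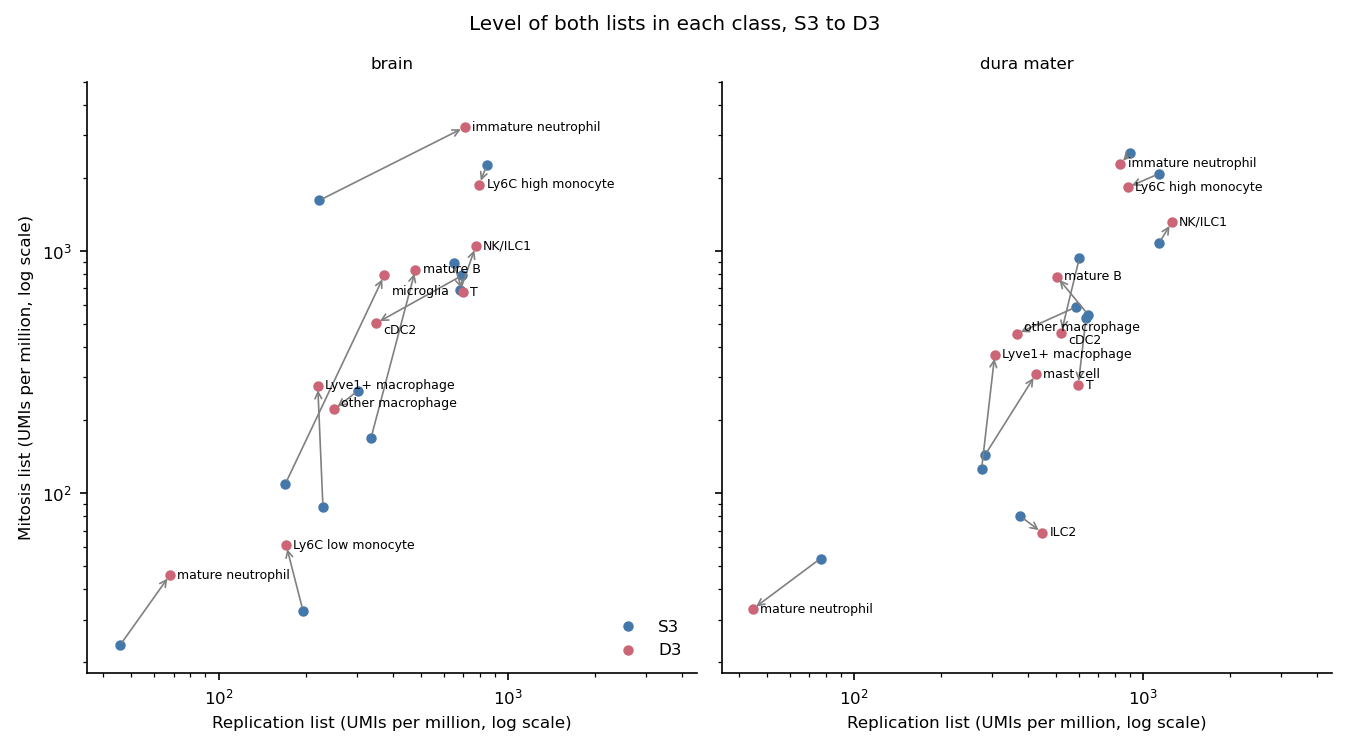
Level of the mitosis list against the replication list (CPM, both axes on a log scale) in each class with at least 50 cells at both times, with arrows from S3 to D3. Microglia-like and Lyve1+ macrophage-like cells go up mainly along the mitosis axis, and mature neutrophil-like cells stay at the low end.

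Class mix and within-class shares were set side by side over the 11 classes with at least 50 cells at both times. In the brain the share of high-member cells over those classes was 3.44% at S3 and 6.89% at D3. D3 shares at the S3 mix gave 5.21%, and S3 shares at the D3 mix gave 4.22%. In the dura mater the shares were 9.42% and 8.01%, with 8.99% for D3 shares at the S3 mix and 8.16% for S3 shares at the D3 mix. The infiltrating macrophage-like and B cell precursor-like cells, which lacked 50 cells at one of the times, are outside these values. Of all high-member cells in brain D3, microglia-like cells were 57 (24.1%), Ly6C high monocyte-like cells 49 and immature neutrophil-like cells 46. In dura mater S3 the leading classes were immature neutrophil-like (101), B cell precursor-like (95) and Ly6C high monocyte-like cells (81).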

How the data were processed

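Single-cell libraries of CD45+ cells were mapped by the authors to mm10 with Cell Ranger 3.1.0 and built in Seurat 3.1.0, per the labels. The deposited values are natural log values, ln of 1 plus the UMIs of a gene per 10000 UMIs of the cell, for genes seen in at least 3 cells. Every value inverted to a whole UMI number (100% of values within 1e-06), so UMIs were recovered and summed. The study's limits were applied (detected genes above 1000 and below 6000, mitochondrial UMIs up to 7%), and cells with markers of several lineages were removed. Scrublet's automatic threshold called 3, 2, 2 and 0 cells and did not work, so its top 0.8% per 1000 barcodes was used only as an alternative. Classes came from 29 marker lists, scored per cell. In each class at least as many own as foreign markers stood among its 10 leading genes, with 0 of either in the other macrophage-like class.

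Levels are UMIs per 1000000 with exact Poisson intervals, shares have exact binomial (Clopper-Pearson) intervals, and ratios have exact conditional (Poisson) intervals. An upper limit for a count of 0 is 3 counts of the total. Fold counts used genes whose UMIs, summed over both groups, reached 20. Thinning used 2000 UMIs per cell and left out 12 shallower cells. The scripts were tested on simulated data. Python 3.11.15, numpy 2.4.6, scipy 1.17.1, pandas 2.3.3 and scanpy 1.11.5 were used.

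The members, the marker and gene lists and the rules were chosen with earlier results of these data known. Values were given for the 6 members of each list with the most UMIs, for Mki67, and for the 2 highest and 2 lowest differences per tissue. They were also given for a few genes of the other lists. Other members and classes named were chosen after their values were seen.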

Additional observations from a re-analysis of the deposited data

Results flagged for a closer look

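Cells with 6000 or more detected genes, which the study's limit leaves out, were rich in high-member cells. Of these cells, 31.6% in brain S3 (31 of 98), 89.2% in dura mater S3 (91 of 102), 53.8% in brain D3 (275 of 511) and 55.5% in dura mater D3 (111 of 200) carried 15 or more members. Among the cells with 15 or more members above the limit, 5.49% to 16.1% carried markers of several lineages and Scrublet would remove 11.7% to 25.8%.

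Several classes went opposite ways in the tissues, and these differences between tissues were not tested, with 1 library per group. In immature neutrophil-like cells, D3 minus S3 (log2) of the replication list was 1.67 in the brain and -0.11 in the dura mater, and of the mitosis list 1.0 and -0.15. The median of all genes in these cells was at 0.05 in the brain and -0.23 in the dura mater, so the dura mater lists were not lower relative to other genes. In mature neutrophil-like cells the replication list was at 0.57 and -0.78 and the mitosis list at 0.97 and -0.69, with levels in every library under 80 CPM. In mature B-like cells the replication list was at 0.51 and -0.36.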

How the results depend on the processing

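The share of cells with 4 or more members (in the order brain S3, dura mater S3, brain D3, dura mater D3) depended on the rule. It was 4.63%, 14.1%, 5.44% and 9.40% after thinning, 37.3%, 48.8%, 51.5% and 55.4% with 3 members, 10.3%, 22.6%, 18.4% and 23.5% with 6, and 14.8%, 27.5%, 25.5% and 29.3% without Stmn1, Dut and Pcna. It was 3.91%, 13.3%, 5.28% and 9.31% with 15. Without cell filters it was 21.8%, 32.0% and 38.0% in brain S3, dura mater S3 and dura mater D3.

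For D3 minus S3 (log2), settings are given in the order no cell filter, mean over cells, and cells under 15 members. The brain replication list gave -0.10, -0.26 and -0.41, with -0.43 as the median of members and -0.10 without infiltrating macrophage-like cells. The brain mitosis list, negative in the report, turned positive in these settings, 0.032, 0.10 and 0.22, and at 0.20 without infiltrating macrophage-like cells. It was -0.43 with mixed-lineage cells kept, -0.51 as the median and -0.53 without Stmn1. The dura mater replication list gave -0.50, -0.57 and -0.16, with -0.62 as the median and -0.48 without B cell precursor-like cells. The dura mater mitosis list gave -0.47, -0.86 and -0.12, and -0.52 without those cells. The microglia-like replication list gave 1.64, 0.78 and 0.16, and the mitosis list 2.70, 2.60 and 1.98, with 3.86 under Scrublet. The Lyve1+ replication list of the dura mater gave 0.42 without filter and reversed to -0.077 in cells under 15 members. Its mitosis list gave 2.01, 1.24 and 0.35, and 1.77 without Stmn1. At 1.5-fold, 13 members were lower in the brain and 32 in the dura mater, and without filters 0 were 2-fold lower in the dura mater. The share of all genes at these settings is not given here, so these counts are not read as a result about the members. The settings of 15 members, without a class and under 15 members were chosen after seeing the data. No paired analysis was possible because each group has 1 library and the labels carry no replicate numbers. Beyond the values themselves, the cause was not tested.

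Depth limited low members, such as Cdc6, with 957 UMIs over all kept cells. Libraries differ in depth, mouse, sort and class mix at once, and these cannot be told apart from injury.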
